A study of Mus musculus with 12 samples.

Results

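Cholesterol (sterol) synthesis genes were examined for acetylation of histone H3 at lysine 27 (H3K27ac), a mark of active promoters and enhancers. The 8 genes were chosen by name as Hmgcs1, Idi1, Fdft1, Sqle, Lss, Cyp51, Srebf2 and Insig1, and every interval that the deposited table assigned to one of these names was taken. This gave 8 of 22264 gene names and 51 of 126464 intervals. All 8 are synthesis enzymes or their regulators. The mark was read by ChIP-seq, the sequencing of DNA pulled down with an antibody to it, in 1 cell line, 4T1, from a mouse mammary carcinoma. Treatment lasted 48 h, with vehicle, with acetate (5 mM), with etomoxir (50 µM), with both, with etomoxir and SB204990 (50 µM each), or with etomoxir, SB204990 and acetate. Each treatment had 2 of the 12 libraries, and the labels do not say whether these came from separate cultures, so p-values measure the spread between these libraries, which may be technical. Libraries that shared a name suffix are called set 1 and set 2 (6 in each), and what the suffix stands for is not given in the sources used here.

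Cholesterol is built from acetyl-CoA in the cytosol. Hmgcs1 encodes the synthase that condenses acetyl-CoA units into HMG-CoA, and Idi1 encodes the isomerase that makes the second building block of the isoprenoid chain. Fdft1 (squalene synthase), Sqle (squalene epoxidase) and Lss (lanosterol synthase) carry the chain to the first sterol, and Cyp51 removes a methyl group from lanosterol. Srebf2 encodes SREBP2, the transcription factor that activates the genes of the pathway when membrane sterol is low, and Insig1 encodes a protein of the endoplasmic reticulum that holds the SREBP precursor back when sterol is high. SB204990 inhibits ATP citrate lyase, which releases cytosolic acetyl-CoA from citrate, etomoxir inhibits the entry of long-chain fatty acids into mitochondria, and acetate can be converted to acetyl-CoA directly.

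Promoter stretches are shown because the mark was read over these starts and because SREBP factors bind short elements there, usually beside NF-Y and Sp1. Of the 8 genes, 6 matched the RefSeq promoter sequences (GRCm38.p6, from 250 bases before to 50 after the start). Sqle and Fdft1 were not matched. Both strands were searched for TCACNCCA (core of the sterol regulatory element), CACGTG (E-box, the same on both strands), CCAAT (NF-Y box) and GGGCGG (GC box, bound by Sp1), and no motif contains another. The sterol element core was found in Hmgcs1 and Srebf2, that is in 2 of 6, against 4.36% of 32851 promoters. The E-box was found in Insig1, in 1 of 6 against 7.15%. CCAAT was found in 6 of 6 against 37.4%, with 4 copies in Hmgcs1 and 2 in Idi1, and GGGCGG in 6 of 6 against 35.7%, with 5 copies in Srebf2. The median GC content was 67.2% in the 6 promoters and 52.7% in all. These are letter matches and no binding was measured.

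The stretches below hold the first of the motifs, in the order given, that lay before the RefSeq start and outside annotated exons of the gene itself. Exons of other genes were not checked. Matched letters are in capitals, with 20 bases on each side. They are written 5′ to 3′ along the strand of the gene. Each lay within the H3K27ac interval that held the start of its gene, and no such stretch was found for Idi1.
Hmgcs1, chr13:119690194-119690241, plus strand, element core starting 137 bases before the start: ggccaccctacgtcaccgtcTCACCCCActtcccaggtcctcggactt
Srebf2, chr15:82147087-82147134, plus strand, element core starting 162 bases before the start: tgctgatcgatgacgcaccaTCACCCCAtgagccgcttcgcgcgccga
Insig1, chr5:28071291-28071336, plus strand, E-box starting 101 bases before the start: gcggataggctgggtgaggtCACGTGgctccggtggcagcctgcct
Lss, chr10:76531523-76531567, plus strand, NF-Y box on the other strand starting 62 bases before the start: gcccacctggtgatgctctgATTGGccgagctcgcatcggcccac
Cyp51, chr5:4104807-4104852, minus strand, GC box starting 135 bases before the start: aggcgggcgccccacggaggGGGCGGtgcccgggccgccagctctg

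The deposited values are reads in an interval multiplied by a factor from human spike-in chromatin, and the reads per library in all intervals ranged from 7179165 to 16676442. Each set had its own library with a factor of 1, and factors are therefore not comparable from set 1 to set 2. The etomoxir + SB204990 library of set 2 had the fewest reads and stood apart from the rest, with a mean correlation over tested intervals of 0.965 with the other libraries against 0.976 to 0.978 for them. Of the epithelial markers of the line, Cdh1 stood at 53.7, Krt8 at 50.2, Epcam at 35.6 and Krt19 at 29.6 scaled reads per kb of interval against a median of 23.0 over all tested genes. Of the markers of other cells, the endothelial Pecam1 stood at 41.4 and the leukocyte genes Ptprc and Cd3e at 25.2 and 12.9, so none was at 0. The gene sums of these 3 ran from 382 to 1081, from 32.3 to 81.6 and from 2.79 to 32.0 scaled reads over the libraries. Krt18 and Alb were not analysed here.

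Cyp51 carried the most H3K27ac per kb of the 8 genes. Over the 12 libraries it had 58.7 scaled reads per kb of interval, above 96.9% of the tested genes, and all of it came from 1 interval over its start. Idi1 (35.7), Sqle (35.5), Insig1 (35.0) and Hmgcs1 (32.2) followed, then Srebf2 (25.6), and Fdft1 (21.0) and Lss (20.7) lay below the median gene. In vehicle the level per kb was 51.3 ± 0.66 for Cyp51, 31.3 ± 4.31 for Idi1, 30.9 ± 1.04 for Insig1, 29.2 ± 3.38 for Sqle, 27.7 ± 4.25 for Hmgcs1, 21.9 ± 3.51 for Srebf2, 16.3 ± 1.88 for Fdft1 and 15.1 ± 4.59 for Lss (SD, n = 2 each). On this average over all intervals of a gene Cyp51 stood clear of all others, the neighbours from Idi1 down to Srebf2, and Fdft1 and Lss, lay within 1 SD of each other's range, and Srebf2 and Fdft1 were just apart. The average takes in further intervals for every gene but Cyp51. Over the start-holding interval alone the level was 58.7 for Cyp51, 50.0 for Sqle, 42.5 for Insig1, 39.9 for Srebf2, 39.3 for Idi1, 33.6 for Hmgcs1, 31.6 for Fdft1 and 24.1 for Lss. The copy number of these loci in 4T1 cells is not known here, and the table's assignment of an interval to its nearest gene need not name the gene it acts on.

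**Figure D1:**
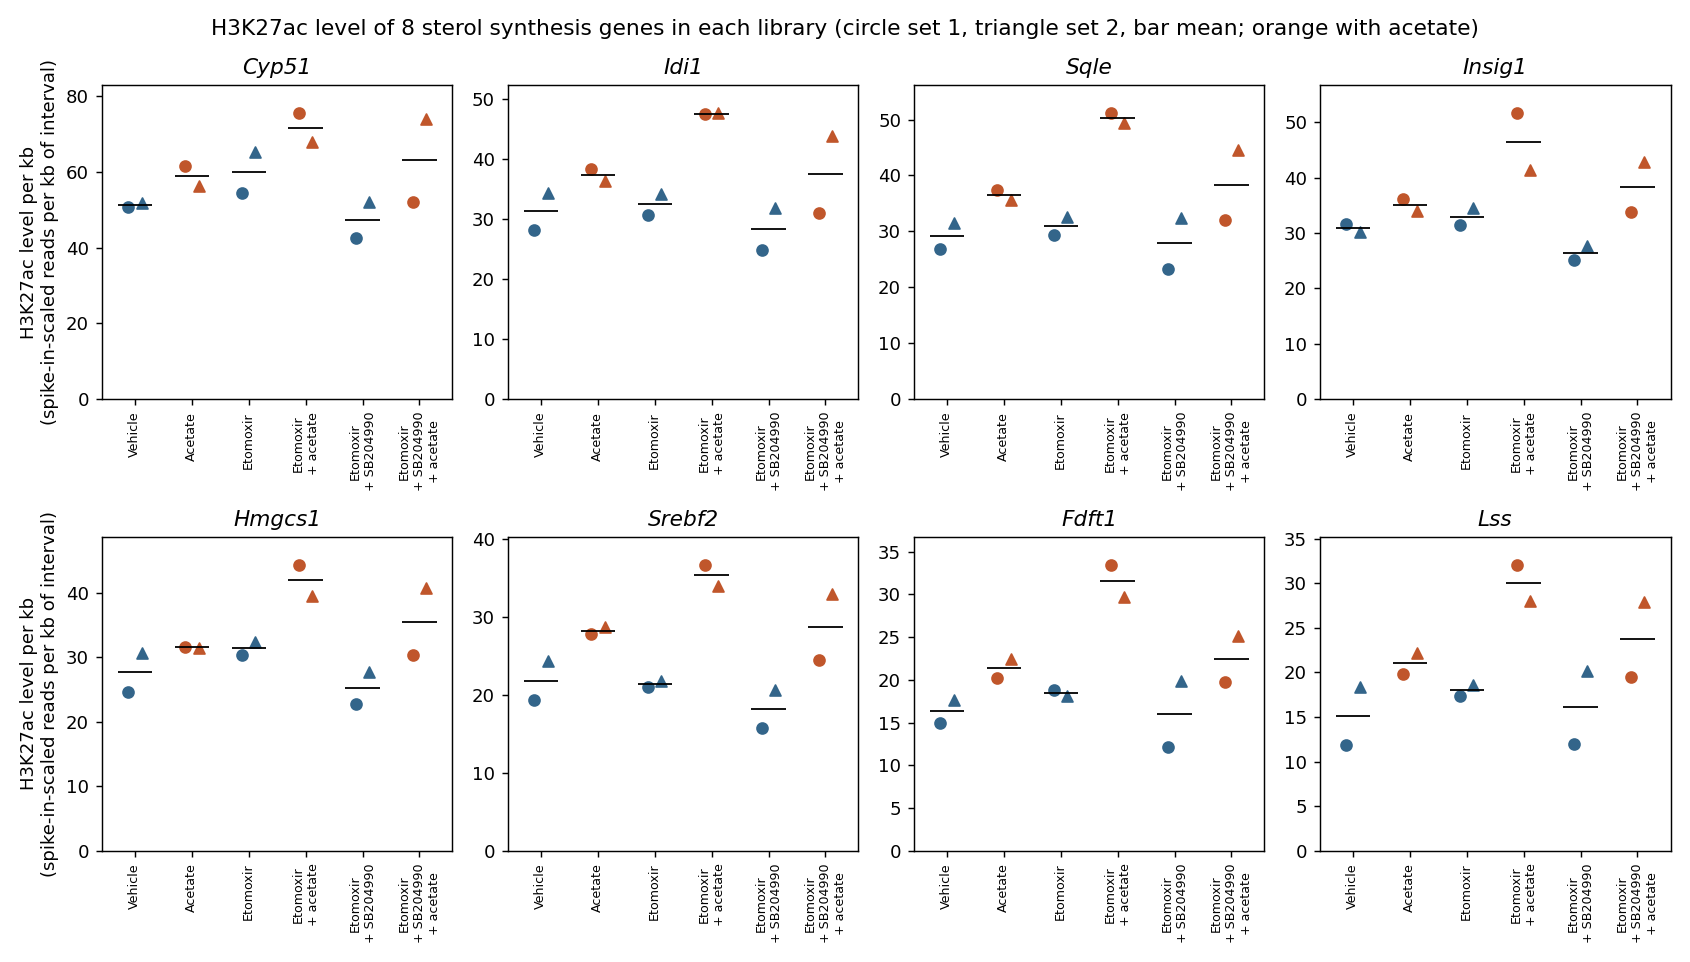
H3K27ac level per kb of interval (spike-in-scaled reads per kb, linear axes from 0) for each gene in each of the 12 libraries, with set 1 as circles, set 2 as triangles, the mean of the 2 libraries as a bar and treatments with acetate in orange. Over both sets, whose factors are not comparable, all 8 genes were highest in a library with etomoxir + acetate. Cyp51 had the highest level in every treatment.

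The total over the intervals of a gene (the gene sum, in scaled reads) was compared between treatments. Of the first steps, Hmgcs1 had gene sums of 202 and 251 with vehicle (set 1, then set 2), 259 and 257 with acetate, 249 and 265 with etomoxir, 362 and 324 with etomoxir + acetate, 186 and 227 with etomoxir + SB204990, and 248 and 333 with etomoxir + SB204990 + acetate. Idi1 had 281 and 341 with vehicle, 381 and 362 with acetate, 305 and 340.1 with etomoxir, 473 and 473 with etomoxir + acetate, 247 and 316 with etomoxir + SB204990, and 309 and 436 with etomoxir + SB204990 + acetate. Over both sets, whose factors are not comparable, both were highest with etomoxir + acetate and lowest in the etomoxir + SB204990 library of set 1. Within each set the 3 libraries with acetate all exceeded the 3 without for Idi1, narrowly in set 1, and did not for Hmgcs1 in either set.

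Of the squalene and lanosterol steps, Fdft1 had gene sums of 491 and 578 with vehicle, 663 and 736 with acetate, 615 and 592 with etomoxir, 1095 and 972 with etomoxir + acetate, 399.9 and 651 with etomoxir + SB204990, and 647 and 822 with etomoxir + SB204990 + acetate. Sqle had 405 and 477 with vehicle, 566 and 538 with acetate, 442 and 492 with etomoxir, 772 and 747 with etomoxir + acetate, 352 and 490.0 with etomoxir + SB204990, and 483 and 674 with etomoxir + SB204990 + acetate. Lss, the weakest of the 8, had 112 and 173 with vehicle, 187 and 208 with acetate, 163 and 175 with etomoxir, 301 and 263 with etomoxir + acetate, 112 and 190.0 with etomoxir + SB204990, and 184 and 263 with etomoxir + SB204990 + acetate. Within each set the libraries with acetate all exceeded those without in each of the 3 genes.

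Cyp51, the one sterol ring enzyme of the group, had gene sums of 225 and 229 with vehicle, 272 and 249 with acetate, 241 and 289 with etomoxir, 334 and 300.5 with etomoxir + acetate, 188 and 231 with etomoxir + SB204990, and 231 and 328 with etomoxir + SB204990 + acetate. Its libraries with and without acetate overlapped in both sets. Of the regulators, Srebf2 had 666 and 837 with vehicle, 956 and 986 with acetate, 723 and 751 with etomoxir, 1260.0 and 1170.3 with etomoxir + acetate, 541 and 711 with etomoxir + SB204990, and 843 and 1132 with etomoxir + SB204990 + acetate. Insig1 had 407 and 388 with vehicle, 465 and 437 with acetate, 404 and 443 with etomoxir, 664 and 534 with etomoxir + acetate, 323 and 356 with etomoxir + SB204990, and 435 and 552 with etomoxir + SB204990 + acetate. Srebf2 was separated by acetate in both sets and Insig1 in set 1 but not in set 2. In all, 5 of the 8 genes were separated in both sets, against 53.3% of all tested genes. With median-of-ratios scaling 0 of the 8 were, against 1.04% of all tested genes.

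Acetate was averaged over its 3 backgrounds (vehicle, etomoxir, etomoxir + SB204990), and all 8 gene sums rose, but each by less than the median gene. The log2 fold change was 0.29 ± 0.13 for Cyp51 (SE, 1.22-fold), 0.36 ± 0.13 for Hmgcs1 (1.29-fold), 0.40 ± 0.11 for Insig1 and 0.40 ± 0.12 for Idi1 (both 1.32-fold). It was 0.50 ± 0.12 for Sqle (1.41-fold), 0.56 ± 0.12 for Fdft1 (1.47-fold), 0.58 ± 0.11 for Srebf2 and 0.61 ± 0.16 for Lss (1.52-fold). These are changes of log2(scaled value + 1) in a limma fit over 19458 genes, with adjusted p from 7.6e-05 (Srebf2) to 0.042 (Cyp51). The 8 of 8 called higher compare with 88.2% of all genes tested, so a called rise was the rule among genes. The median log2 fold change was 0.45 over the 8 and 0.63 over all genes.

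Relative to other genes the rise was smallest in Cyp51 and Hmgcs1. The percentile among all gene changes was 2.56 for Cyp51, 4.73 for Hmgcs1, 6.37 for Insig1, 6.50 for Idi1, 14.9 for Sqle, 27.7 for Fdft1, 34.9 for Srebf2 and 41.8 for Lss. In the 6 same-set pairs of libraries that differ by acetate, 48 of 48 single ratios lay above 0 and 42 of 48 below the median gene of their pair. Cyp51, Idi1 and Sqle were below it in 6 of 6 pairs, Hmgcs1, Insig1, Srebf2 and Fdft1 in 5 of 6, and Lss in 4 of 6. In 4 equal classes of genes by level per kb, from the weakest to the strongest, the median change was 0.62, 0.67, 0.64 and 0.61.

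With median-of-ratios scaling, which sets the shared shift to about 0, the direction turned and no gene of the 8 was called. The log2 fold change was -0.36 ± 0.13 for Cyp51, -0.28 ± 0.11 for Hmgcs1, -0.24 ± 0.15 for Insig1, -0.24 ± 0.12 for Idi1 and -0.15 ± 0.11 for Sqle, and it was -0.08 for Fdft1, -0.06 for Srebf2 and -0.03 for Lss, against a median of -0.01 over all genes. In limma 0 of 8 and 0 of 19458 genes passed the threshold under this scaling, with 2 of 8 (Cyp51 and Hmgcs1) and 1021 of all at an unadjusted p under 0.05. On this scale Cyp51 ran from 202 to 275 with acetate (median 228) and from 227 to 361 without (median 307), and the groups overlapped. Without the etomoxir + SB204990 library of set 2 the spike-in-scaled changes were 0.34 for Cyp51, 0.41 for Hmgcs1, 0.42 for Insig1 and 0.46 for Idi1 against a median of 0.73, all 8 remained called (98.5% of all genes) and all 8 lay below the median. Without that of set 1 the changes were 0.24 for Cyp51, 0.32 for Hmgcs1, 0.38 for Insig1, 0.34 for Idi1, 0.42 for Sqle, 0.44 for Fdft1, 0.52 for Srebf2 and 0.48 for Lss against a median of 0.54, and again all 8 were called (86.7% of all genes) and below the median. A fit without 1 library leaves 1 in its treatment, so the spread comes from the other treatments. The library that remains is of 1 set and is compared with libraries of both sets, whose factors are not comparable. The percentiles moved with the etomoxir + SB204990 libraries. Without that of set 1 they were 7.09 for Cyp51, 10.0 for Hmgcs1, 14.2 for Insig1, 11.5 for Idi1, 22.7 for Fdft1 and 31.1 for Lss, and without that of set 2 0.457, 1.45, 1.73, 3.13, 35.5 and 50.0 in that order. In the fit without that of set 1 with median-of-ratios scaling Srebf2 had a value of 0.036 and Cyp51 -0.24. The call on Cyp51 was the least stable: it was lost without either vehicle, acetate, etomoxir or etomoxir + acetate library, without etomoxir + SB204990 + acetate set 2 (adjusted p from 0.052 to 0.14 in these 9 fits) and without an intensity trend (adjusted p = 0.051). Hmgcs1 lost its call without vehicle set 1 (adjusted p = 0.055), and Idi1 did with intervals within 10 kb of the start (0.28, adjusted p = 0.054). With the share of reads times the factor all 8 values stayed above 0, from 0.083 for Cyp51 to 0.40 for Lss against a median of 0.43, and every call was lost.

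**Figure D2:**
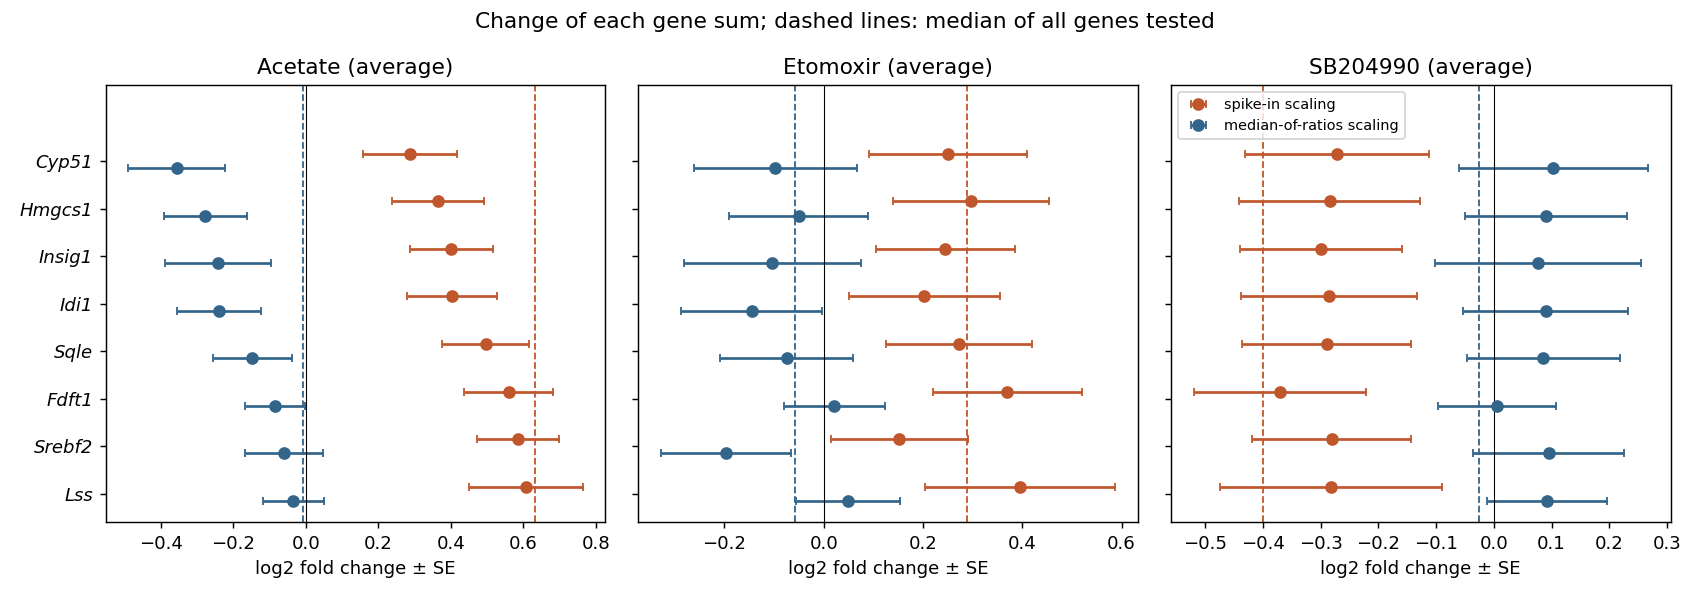
Log2 fold change ± SE (error bars) of each gene sum for acetate, etomoxir and SB204990, each averaged over its backgrounds, with spike-in scaling in orange and median-of-ratios scaling in blue and the median of all tested genes as dashed lines. For acetate the spike-in values ran from 0.29 (Cyp51) to 0.61 (Lss), all left of the median of 0.63, and all 8 were below 0 with median-of-ratios scaling.

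The intervals of the 8 genes were fitted separately, over 63903 intervals with a mean of at least 10. Of the 51 intervals 32 passed this filter, and acetate raised 21 of the 32, against 77.2% of all tested intervals. The 8 intervals that held the start of their own gene changed by 0.27 to 0.51 (median 0.39), each below the median of 0.64 over all intervals and below the median of 0.62 over the start-holding intervals of 9373 genes. The other 24 changed by 0.15 to 0.92 (median 0.64), and 12 of them were below the median interval. No test was made between the 8 and the 24, which share genes and libraries.

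At the start of Cyp51 (chr5:4102099-4106524, mm10) the change was 0.29 ± 0.12 (adjusted p = 0.027), and at that of Hmgcs1 (chr13:119687777-119695275) 0.36 ± 0.12 (adjusted p = 0.0064). These single intervals held 100% and 95.6% of the mean value of their genes. Sqle (chr15:59313010-59320890) changed by 0.44 ± 0.11 (adjusted p = 0.00031) and Insig1 (chr5:28067899-28077494, which also held the start of Gm26608) by 0.39 ± 0.11 (adjusted p = 0.0014). All 4 were annotated as an intron or promoter of the gene and were both the closest and the strongest interval of it.

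Idi1 was divided between 2 starts. The interval at its own start (chr13:8884300-8888064, promoter, with the start of Gm48574 also inside) held 41.7% of the gene sum and changed by 0.27 ± 0.14, which did not pass the test (adjusted p = 0.060). Its values were 128 and 142 with vehicle, 159 and 161 with acetate, 122 and 151 with etomoxir, 165 and 188 with etomoxir + acetate, 107 and 155 with etomoxir + SB204990, and 127 and 172 with etomoxir + SB204990 + acetate. The strongest interval that the table gave to Idi1 (chr13:8869502-8873189, 47.8% of the sum) lay over the start of the neighbouring gene Wdr37 and rose by 0.49 ± 0.13 (adjusted p = 0.00068). The called rise of the Idi1 gene sum therefore includes an interval annotated to another promoter.

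In Srebf2 and Fdft1 the values inside the gene varied, and no test was made between them and the start. The start of Srebf2 (chr15:82139540-82153969, 65.3% of the sum) rose by 0.51 ± 0.11 (adjusted p = 1.3e-05). The largest rises farther in were 0.90 ± 0.22 (chr15:82176385-82179223, intron), 0.85 ± 0.19 (chr15:82163150-82166651, intron) and 0.79 ± 0.31 (chr15:82170267-82171251, annotated as a transcription end). The first of these had 17.3 and 37.2 scaled reads with vehicle, 37.4 and 35.3 with acetate, 29.7 and 20.0 with etomoxir, 55.0 and 64.3 with etomoxir + acetate, 14.7 and 37.0 with etomoxir + SB204990, and 43.3 and 49.4 with etomoxir + SB204990 + acetate, so that acetate separated it in set 1 and not in set 2, at few reads. The second strongest Srebf2 interval (chr15:82154365-82162885, intron, 15.8% of the sum) was not among those 3. It had 91.1 and 133 scaled reads with vehicle and 129 and 152 with acetate. With etomoxir it had 120 and 113, and 242 and 210 when acetate was added. With etomoxir + SB204990 it had 70.5 and 131, and 116 and 165 when acetate was added. The start of Fdft1 (chr14:63172529-63181546, 41.4% of the sum) rose by 0.38 ± 0.12 (adjusted p = 0.0031). Its next strongest interval (chr14:63141302-63152754, intron, 30.5%) rose by 0.70 ± 0.13 (adjusted p = 4.3e-07), and the interval that the table lists as closest to a start (chr14:63162246-63165917, intron) by 0.80 ± 0.18 (adjusted p = 4.9e-05). Of the 8 other tested Fdft1 intervals, 2 had values below that of the start, 0.15 ± 0.24 (chr14:63169695-63171603) and 0.34 ± 0.30 (chr14:63161159-63161942), and neither passed. The largest rises within Fdft1 were 0.92 ± 0.32 (chr14:63159500-63160254) and 0.89 ± 0.24 (chr14:63156615-63158686), both in introns.

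For Lss the start interval (chr10:76530662-76534518, 47.8% of the sum) rose by 0.51 ± 0.16 (adjusted p = 0.0025). The next intervals rose by 0.66 ± 0.22 (chr10:76535364-76537563) and 0.88 ± 0.27 (chr10:76537826-76539000), and the interval listed as closest to a start (chr10:76540205-76540663) was below the filter. With median-of-ratios scaling none of the 32 intervals was called for acetate and 0 of all 63903 were (4179 at an unadjusted p under 0.05). On that scale all 8 start-holding intervals were below 0, from -0.37 (Idi1) to -0.13 (Lss), and 4 of these 8 had an unadjusted p under 0.05.

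**Figure D3:**
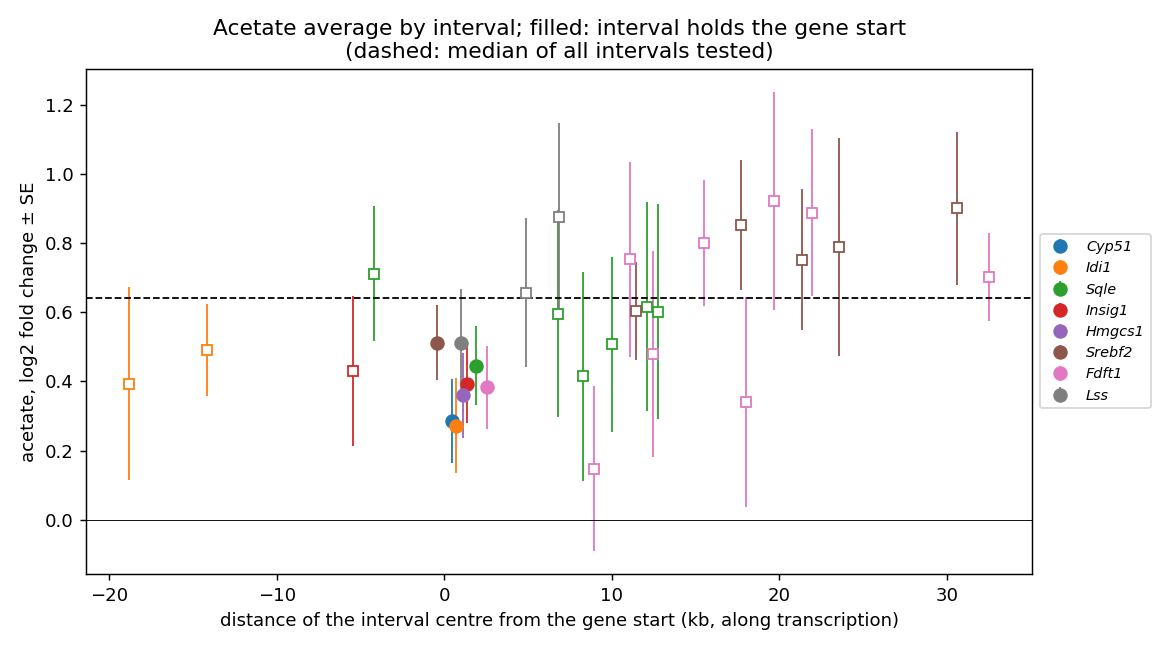
Acetate change (log2 fold change ± SE, spike-in scaling) of the 32 tested intervals against the distance of the interval centre from the gene start in kb, with filled circles for intervals that hold the start and open squares for others, coloured by gene. The 8 filled circles lie between 0.27 and 0.51, below the dashed median of all intervals at 0.64, and the open squares lie on both sides of it.

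By background, acetate on etomoxir raised 6 of the 8 gene sums, against 78.2% of all genes. The largest change was 0.77 ± 0.21 for Fdft1 (adjusted p = 0.0041) and the smallest 0.26 ± 0.22 for Cyp51 (adjusted p = 0.27), which with Hmgcs1 (0.41 ± 0.22, adjusted p = 0.086) did not pass. The count of 6 was 2 and 3 without the etomoxir libraries of set 1 and set 2 (52.3% and 37.9% of all genes), and 0 and 5 without the etomoxir + acetate libraries of set 1 and set 2 (28.8% and 57.3%). Acetate on etomoxir + SB204990 raised 3 of the 8, Srebf2 (0.65 ± 0.20), Insig1 (0.53 ± 0.20) and Fdft1 (0.52 ± 0.21), against 57.7% of all genes. With the suffix as a replicate block 6 of the 8 were called, against 65.0% of all genes. The count of 3 was 8 without the etomoxir + SB204990 library of set 2 (91.4% of all genes) or the etomoxir + SB204990 + acetate library of set 1 (59.1%). It was 0 without the etomoxir + SB204990 library of set 1 (19.1%) or the etomoxir + SB204990 + acetate library of set 2 (0%), 1 without either etomoxir library (50.1% each), and 2 or 3 without any of the others. Acetate against vehicle gave 0.18 (Insig1) to 0.50 (Lss), with 0 of 8 called by limma, edgeR or DESeq2, 0 of 8 at an unadjusted p under 0.05 and 0% of all genes called by limma (8341 at an unadjusted p under 0.05). DESeq2 called 399 of all genes. In the fit of only these libraries 3 of the 8 (Srebf2, Fdft1 and Lss) were called higher, against 61.5% of all genes, and the same 3 were without the etomoxir + SB204990 library of set 1 (61.1%) or of set 2 (61.2%). With the suffix as a replicate block 3888 of all genes (20.0%) and 0 of the 8 were called. A fit without a library of the comparison leaves 1 library of 1 set against libraries of both sets, whose factors are not comparable. Its spread then comes from the other treatments. Counts from such fits do not separate a change with treatment from a difference between sets. The single comparisons share libraries with each other and with the averages.

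No difference in the effect of acetate between backgrounds passed a test. The difference between acetate on etomoxir and acetate on vehicle ran from 0.06 (Cyp51) to 0.38 (Fdft1), against a median of 0.30 over all genes, and the difference between acetate on etomoxir + SB204990 and acetate on vehicle from 0.08 (Lss) to 0.35 (Insig1), against 0.16. In limma 0 of 8 passed in either, with 0 of 8 at an unadjusted p under 0.05, and edgeR and DESeq2 also called 0. With 2 libraries a treatment the SE of such a difference was large, so this does not show that the effects were equal.

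**Figure D4:**
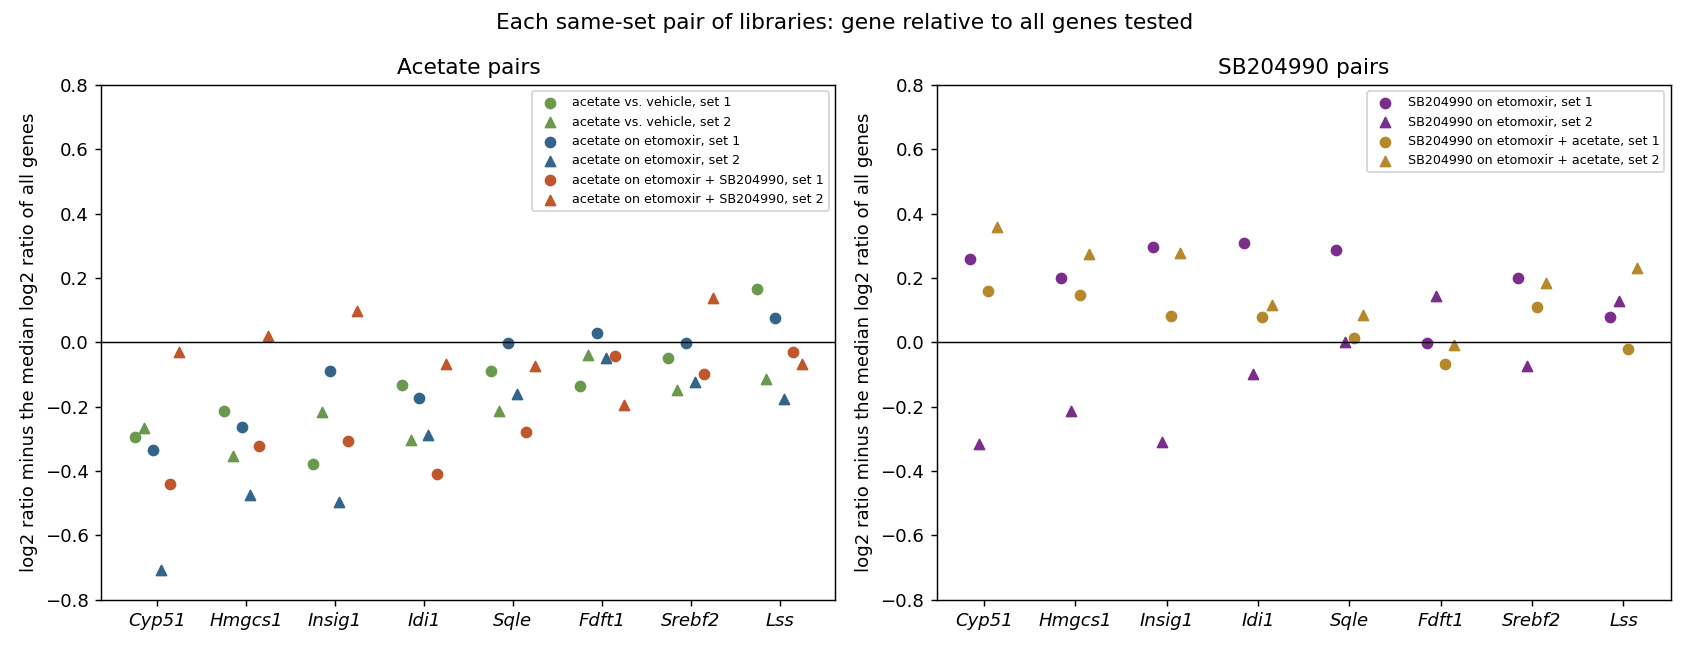
Log2 ratio of each gene within a same-set pair of libraries minus the median log2 ratio of all tested genes in that pair, for the 6 acetate pairs (left) and the 4 SB204990 pairs (right), with set 1 as circles and set 2 as triangles. Of 48 acetate points 42 lie below 0, the lowest at -0.71 (Cyp51, acetate on etomoxir, set 2), and of 32 SB204990 points 9 do, 5 of them in the set 2 pair of etomoxir + SB204990 against etomoxir.

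SB204990 added to etomoxir, averaged without and with acetate, lowered 1 of the 8 gene sums, Fdft1 (-0.37 ± 0.15, adjusted p = 0.047), against 45.0% of all genes. The other 7 had changes of -0.27 (Cyp51) to -0.30 (Insig1), with adjusted p from 0.076 to 0.20. All 8 lay above the median of -0.40 over all genes, from percentile 61.5 (Fdft1) to 83.1 (Cyp51). Without the etomoxir + SB204990 library of set 1 Insig1 moved to percentile 49.7, and without that of set 2 Fdft1 moved to 44.2. The other genes stayed above the median in these 2 fits. The call on Fdft1 was lost in edgeR, in DESeq2 and without any 1 of 8 of the libraries, and with median-of-ratios scaling its value was 0.01, none of the 8 was called and the 8 ran from 0.01 to 0.10. Under this scaling limma called 0 of all genes (935 at an unadjusted p under 0.05).

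The SB204990 values differed between the sets. In set 1 the 8 genes changed by -0.69 (Fdft1) to -0.44 (Cyp51), and in set 2 by -0.13 (Insig1) to 0.06 (Lss). Without the etomoxir + SB204990 library of set 2, which stood apart, all 8 were called lower (85.1% of all genes), from -0.55 (Fdft1) to -0.33 (Insig1) against a median of -0.53, and without that of set 1 none was (20.6% of all genes). Each of these fits leaves 1 etomoxir + SB204990 library, so the spread comes from the other treatments. The library that remains is of 1 set and is compared with etomoxir libraries of both sets, whose factors are not comparable. The counts therefore do not separate a dependence on 1 library from a difference between sets. With spike-in scaling the etomoxir + SB204990 library of set 1 had the lowest sum of its own set in 7 of the 8 genes. With median-of-ratios scaling it had the highest sum of all 12 libraries in 6 of the 8. Among the intervals, SB204990 lowered 2 of 32, the first Srebf2 intron (chr15:82154365-82162885, -0.49 ± 0.17, adjusted p = 0.033) and the distal Fdft1 intron (chr14:63141302-63152754, -0.41 ± 0.16, adjusted p = 0.049), against 19.2% of all intervals. The 8 start-holding intervals changed by -0.31 to -0.16 and none was called in this fit over all intervals. In a separate fit of start-holding intervals only, 7932 of 9373 genes were called lower, with a median of -0.41. The count among the 8 in that fit is given in the closing section.

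Etomoxir, averaged over vehicle and acetate, gave positive values for the 8 gene sums, from 0.15 ± 0.14 (Srebf2) to 0.40 ± 0.19 (Lss), and none passed, against 0.298% of all genes called higher. In limma 2 of 8 (Fdft1 and Lss) had an unadjusted p under 0.05, and edgeR and DESeq2 each had 0 called. The median of all genes was 0.29, with 5 of the 8 below it. With median-of-ratios scaling the value was below 0 for 6 of the 8, from -0.20 (Srebf2) to -0.05 (Hmgcs1), and above 0 for Fdft1 (0.02) and Lss (0.05), and none was called. In the fit of only the libraries of the comparison 6 of the 8 were called higher against 60.6% of all genes, and 2 of the 8 were without the etomoxir + SB204990 library of set 1 (32.3% of all genes) or of set 2 (32.6%). Etomoxir + SB204990 against vehicle gave -0.27 (Srebf2) to 0.07 (Lss), with 0 of 8 called and 0 of 8 at an unadjusted p under 0.05.

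Of 14 further synthesis enzymes, Tm7sf2 was not analysed here, Mvk was below the filter, and 12 of 12 tested rose with acetate (88.2% of all genes did), 10 of them by less than the median gene. Their median change was 0.54, between the 0.45 of the 8 and the 0.63 of all genes, and the values farthest from the median gene were those of Nsdhl (0.46 ± 0.21), a sterol dehydrogenase, Dhcr7 (0.80 ± 0.17), the last reductase of one branch, Msmo1 (0.49 ± 0.11), a sterol demethylase, and Fdps (0.51 ± 0.14), which makes farnesyl diphosphate. With SB204990 4 of the 12 fell, against 45.0% of all genes: Ggps1 (-0.36 ± 0.14), Msmo1 (-0.38 ± 0.13), Nsdhl (-0.67 ± 0.26) and Sc5d (-0.39 ± 0.13), with a median of -0.36 over the 12 against -0.40 over all genes.

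Of 5 genes for the processing of SREBP and its paralog, 5 rose with acetate (median 0.64, against the same 88.2% of genes called), the least in Mbtps2 (0.40 ± 0.13), which encodes the site-2 protease, and the most in Srebf1 (0.75 ± 0.11). With SB204990 4 of the 5 fell (45.0% of all genes), all but Scap (-0.35 ± 0.17). Of 5 genes for efflux and its regulators, Abca1 was not analysed here and the 4 tested rose with acetate (median 0.66, against 88.2% of all genes called), with Abcg1, a cholesterol exporter, at 0.75 ± 0.15. The same 4 fell with SB204990, against 45.0% of all genes. Abcg1 had a log2 fold change of -0.92 ± 0.18 (set 1 -1.21, set 2 -0.64), at percentile 0.128 of all genes, and Mylip, a ubiquitin ligase, one of -0.58 ± 0.14. With median-of-ratios scaling Abcg1 was at -0.55 ± 0.09 and was not called (adjusted p = 0.90). Of 6 genes for transport, storage and uptake, 5 rose with acetate (88.2% of all genes) and Vldlr (0.45 ± 0.23) did not pass. With SB204990 1 of the 6 fell, Npc2 (-0.39 ± 0.13), against 45.0% of all genes. The mammary and other markers also moved: Krt8, Krt19, Epcam and Cdh1 rose with acetate by 0.58 to 0.80, and Cd3e (0.85) and Pecam1 (0.71) were called while Ptprc (0.41) was not. With SB204990 3 of the 4 epithelial markers and 2 of the 3 others were called lower, against 45.0% of all genes. Their part in the values of the 8 genes was not tested.

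The profile most like the mean of the 8 genes, after median-of-ratios scaling and over 12 libraries, was that of Ints10 (r = 0.984), followed by 1700021A07Rik (r = 0.982), Gm35189 (r = 0.981), Nr4a3 (r = 0.975) and E030013I19Rik (r = 0.973), of 15526 genes ranked. The points share their libraries, scaling and depth, and the library that stood apart is among them, so these are descriptions.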

How the data were processed

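The deposited table gives H3K27ac ChIP-seq signal in 126464 mm10 intervals, each assigned to 1 gene name in the authors' table (in at least 1 case not the gene whose start it covers), for 12 libraries of 4T1 cells. Per the authors' methods and reporting summary, 4T1 chromatin was mixed with 7.5% human chromatin, reads were aligned to a merged human and mouse genome, broad peaks were called with MACS2, and reads were scaled by a spike-in factor. That factor was taken to be the smallest positive value of each library. Division by it gave whole reads for 100% of values (tolerance 0.001), used for edgeR (4.0.16) and DESeq2 (1.42.0). Input libraries were not used here. Interval signal was summed per gene name, leaving out 12 rows without one (0.00362% of reads), and genes with a mean of at least 10 were kept. One limma (3.58.1) fit of 6 treatment means with an intensity trend was made on log2(value + 1), with Benjamini-Hochberg adjustment over all 19458 genes (63903 intervals) and a threshold of 0.05. Median-of-ratios scaling was the main alternative. Depth was 7179165 to 16676442 reads, and the number of libraries per treatment limits the precision. The scripts were tested on simulated data. All 8 genes and 51 intervals were followed, with further lists for synthesis, SREBP processing, efflux, transport and markers, and the most alike profiles were ranked by Pearson's r among genes with a mean of at least 50. Members, lists and tests were chosen with earlier results of these data known.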

Additional observations from a re-analysis of the deposited data

How the results depend on the processing

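The 8 genes called higher with acetate stayed between 6 and 8 when each library was left out in turn, and at least 7 of the 8 stayed below the median gene in each of those fits. The count was 0 with median-of-ratios scaling, total-sum scaling, the share of reads times the factor, and the replicate block with median-of-ratios scaling. With the share times the factor the acetate values stayed above 0 (0.083 to 0.40). They turned under the other scalings, to -0.28 for Hmgcs1, -0.15 for Sqle, -0.060 for Srebf2, -0.24 for Idi1, -0.24 for Insig1, -0.034 for Lss, -0.085 for Fdft1 and -0.36 for Cyp51 with median-of-ratios scaling, with or without the block, and to -0.26, -0.13, -0.042, -0.22, -0.22, -0.016, -0.067 and -0.34 in that order with total-sum scaling. Etomoxir raised 6 instead of 0 genes in the fit of only the libraries compared, and 0 to 2 when 1 library was left out. The count lowered by SB204990, 1, was 0 with median-of-ratios scaling (with or without the replicate block), total-sum scaling, the share times the factor, no intensity trend, edgeR, DESeq2, no filter, only the libraries compared and intervals within 10 kb. It was 2 for the closest interval, for which the share of all genes is not given here. For the interval holding the gene start it was 5 of 8, against 7932 of 9373 genes in the same fit. That alternative was added after seeing the data. How many of the 8 and of all genes were called also moved with the library left out. Leaving out 1 library leaves 1 in its treatment, so only changes are given here. Over the 12 such fits the SB204990 change ran from -0.55 to -0.19 for Fdft1, from -0.39 to -0.18 for Hmgcs1 and from -0.40 to -0.15 for Cyp51. Fdft1, the gene called lower, had 0.0055 with median-of-ratios scaling (also with the block) and 0.024 with total-sum scaling. For acetate on etomoxir, median-of-ratios scaling gave -0.17 for Sqle, -0.15 for Srebf2, -0.32 for Idi1, -0.38 for Insig1, -0.14 for Lss and -0.10 for Fdft1, which had been called, and -0.61 for Cyp51 and -0.45 for Hmgcs1, which had not. Total-sum scaling gave -0.040 for Sqle, -0.023 for Srebf2, -0.19 for Idi1, -0.25 for Insig1, -0.0072 for Lss, -0.48 for Cyp51 and -0.33 for Hmgcs1. For acetate on etomoxir + SB204990 the former gave -0.034 for Insig1 and -0.049 for Fdft1, and the latter -0.011 for Srebf2, -0.13 for Insig1 and -0.15 for Fdft1. These scalings remove a shift shared by all genes by construction.

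Of 15 same-suffix correlations of deviations, 3 were over 0.1 (all 15 from -0.149 to 0.354), those between vehicle, acetate and etomoxir + SB204990 (0.299 to 0.354). Deviations from a mean of 2 libraries also hold counting noise, so low values cannot show whether the suffix pairs the libraries. A fit with the suffix as a replicate block left the 3 averages at 8, 0 and 1 called and moved acetate on etomoxir + SB204990 from 3 to 6 genes. Against vehicle, acetate then raised 3888 of all genes, against 0 in limma and edgeR and 399 in DESeq2, and none of the 8. With 2 libraries per treatment and a shared shift that rests on 1 factor per library, small differences between genes were not detectable one by one. The count of genes separated by acetate within each set was chosen after seeing the data, and across both sets only Srebf2 of the 8 was separated (39.3% of all genes).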
